A study of Mus musculus with 12 samples.

Results

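The genes described here are the cytochrome P450 (P450) genes of the mouse to which a peak of N6-methyladenosine (m6A) in lung tissue was assigned by the nearest transcript start. A peak was taken when the assigned name was Cyp, a family number, a letter and a member number. This gave 36 peaks on 24 P450 genes among 27292 peaks on 14118 genes in the OVA list, and 36 peaks on 22 P450 genes among 26102 peaks on 13564 genes in the PBS list. In all, 26 of 15332 genes with a peak in either list were P450 genes, and 20 of them had a peak in both lists.

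m6A is a methyl mark on adenosines of RNA, and in MeRIP-seq fragmented RNA is pulled down with an antibody to m6A (IP) and sequenced beside RNA that was not pulled down (input). The OVA group were female BALB/c mice with allergic asthma, sensitized by injection of ovalbumin (OVA) with aluminum hydroxide and then challenged with aerosolized OVA. The PBS group were female BALB/c mice that received phosphate-buffered saline (PBS) without OVA or aluminum hydroxide, and by the methods mice were tested with inhaled methacholine before tissue was collected. There were 3 samples per group, each with an IP and an input library. The labels give no age, while the methods of the paper state one. The authors deposited 1 peak list per group, with 1 fold enrichment and 1 p-value per peak for the whole group. No value of a single mouse was therefore analysed here, and no difference between the groups was tested. The paper itself reports peaks whose methylation differed between the groups, which are not taken up here.

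P450 enzymes are heme proteins that insert an oxygen atom into their substrates with electrons from a reductase. Some clear drugs and inhaled chemicals, and others make or degrade steroids, bile acids, vitamin D, retinoic acid and products of arachidonic acid. In the lung they are best known from club cells and alveolar type II cells of the epithelium, where they activate or detoxify inhaled compounds.

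Most of the P450 peaks had a counterpart in the other group. A peak was counted as shared when its exonic parts overlapped a peak of the other list by at least 1 bp. By this rule 28 of the 36 P450 peaks of the OVA list overlapped a PBS peak and 8 did not, which is 22.2% (Wilson 95% interval 11.7 to 38.1%) beside 19.4% of all OVA peaks. In the PBS list 31 of 36 overlapped an OVA peak and 5 did not, or 13.9% (6.08 to 28.7%) beside 14.5% of all PBS peaks. By this rule the P450 shares were near those of all peaks. The counts depend on the rule: when 50% of each peak had to be covered, 11 P450 peaks of each list had no counterpart, beside 31.4% of all OVA and 28.3% of all PBS peaks, and with identical ends 35 of each had none, beside 89.7% and 89.3%. With P450 peaks taken by the gene they were called on, 9 of 39 PBS peaks overlapped no OVA peak, beside the 14.5% of all PBS peaks. With protein-coding transcripts only, 5 of 20 OVA peaks overlapped no PBS peak. The share of all OVA peaks on protein-coding transcripts was not computed, so this count has no background. At the level of genes, 4 of the 24 P450 genes of the OVA list had no peak in the PBS list, beside 12.5% of all genes of the OVA list. In the other direction, 2 of 22 had no peak in the OVA list, beside 8.95% of all genes of the PBS list. The shares of the P450 genes were 16.7% and 9.09%, again near the background. The intervals cover counting error only.

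The fold enrichment is the IP signal over the input signal of a peak, as the peak caller of the authors gave it. For the P450 peaks of the OVA list the median was 7.49 (quartiles 3.33 and 11.4), and over all OVA peaks it was 5.59. The P450 peaks of the PBS list had a median of 7.22 (quartiles 3.83 and 10.6), beside 5.44 for all peaks. The order-statistic 95% intervals of the P450 medians, 3.44 to 11 and 4.51 to 10.2, included the medians of all peaks. Nothing in the sources says that the lists were scaled to each other, so each peak is also given by its percentile, the share of peaks of the same list with a lower fold enrichment. Among the 28 overlapping P450 peaks, 17 had the higher percentile in the OVA list, beside 55.8% of all 22009 overlapping peaks. That is 60.7% of the P450 peaks (Wilson 95% interval 42.4 to 76.4%), a share near that of all peaks. The percentiles of a P450 peak in the OVA list and its PBS counterpart lay a median of 10.2 points apart, compared with 7.78 points for all overlapping peaks. An FDR under 0.05 was reached by 35 of 36 P450 peaks in the OVA list, where 98.1% of all peaks reached it, and by 36 of 36 in the PBS list, where 97.8% did.

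**Figure D1:**
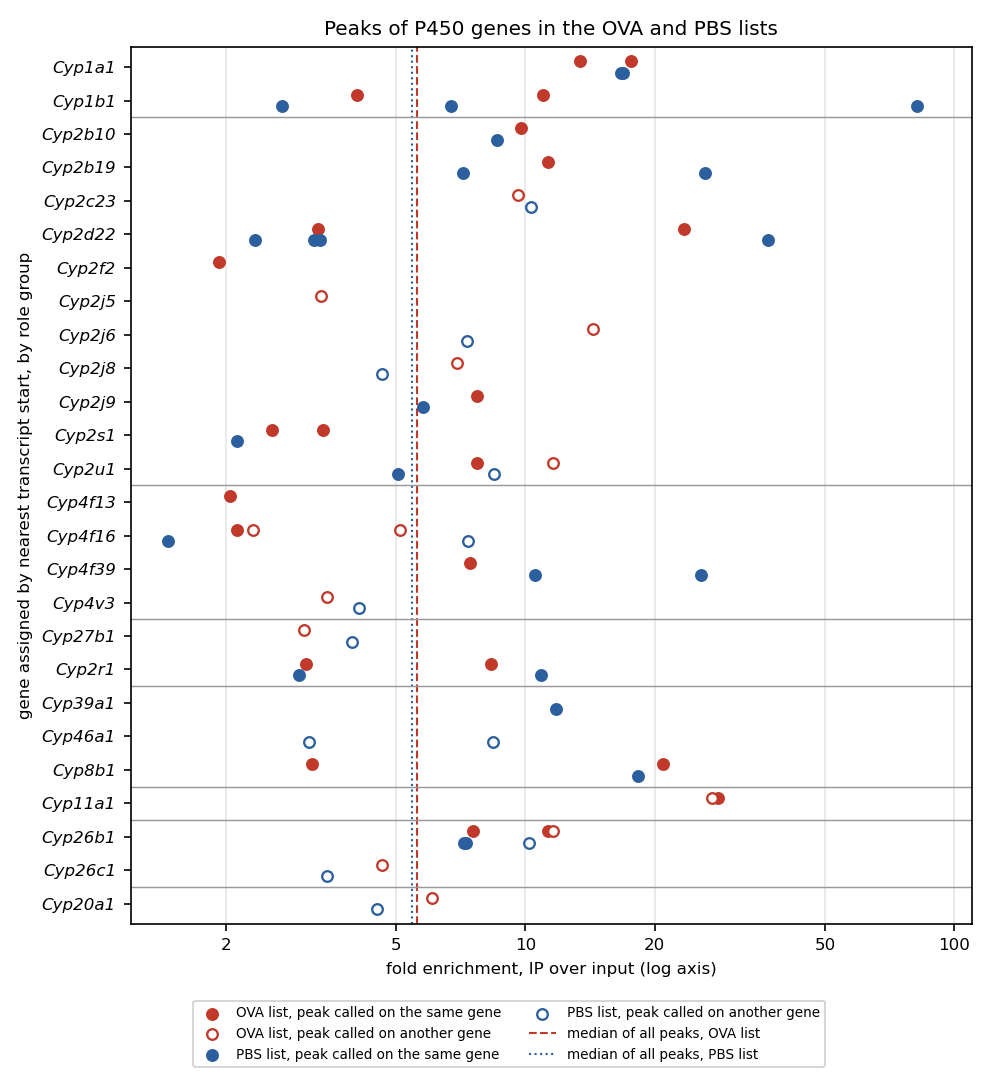
Fold enrichment (IP over input, log axis) of each P450 peak by its assigned gene, in role groups separated by lines; red points are peaks of the OVA list and blue points peaks of the PBS list. Open points mark peaks called on another gene than the assigned one, and the vertical lines are the medians of all peaks, 5.59 in the OVA and 5.44 in the PBS list; the highest P450 value is 81.9 for Cyp1b1 in the PBS list.

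The name of the assigned gene was not always the gene on which the peak had been called. The lists hold the gene with the nearest transcript start, which chose the members here, and, in a column of its own, the identifier of the gene whose exons were scanned for the peak, termed the calling gene below. In the OVA list 13 of 36 P450 peaks were called on another gene, or 36.1% (22.5 to 52.4%), beside 22.5% of all peaks. The PBS list had 12 of 36, or 33.3% (20.2 to 49.7%), beside 22.8% of all peaks. Of these peaks, 12 in the OVA and 12 in the PBS list lay before the transcript start of the P450 gene they were assigned to. In each list 24 of the 36 P450 peaks overlapped the RefSeq span of the assigned gene. All peaks of 9 of the 26 P450 genes were called on other genes: Cyp20a1, Cyp26c1, Cyp27b1, Cyp2c23, Cyp2j5, Cyp2j6, Cyp2j8, Cyp46a1 and Cyp4v3. The peaks that carried these 9 names had thus been called on neighboring transcripts, and their values below are given with the calling gene.

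The CYP1 group holds enzymes that oxidize polycyclic aromatic hydrocarbons and are induced through the aryl hydrocarbon receptor. Cyp1a1 and Cyp1b1 had peaks in both lists, all called on the genes themselves, and Cyp1a2 had none. The Cyp1a1 peak in the 3' UTR (chr9:57702655-57703075) had an OVA fold enrichment of 17.6, at percentile 88.9 and a log10 p of -1610. Its PBS counterpart started at the same base and had a fold enrichment of 16.7, at percentile 89.2 and a log10 p of -2120. The position of this peak within each list was nearly the same. The other Cyp1a1 peak began in the 5' UTR and its blocks covered 932 exonic bases in the OVA and 963 in the PBS list, with fold enrichments of 13.4 and 16.9. All Cyp1a1 peaks were thus at percentile 81.0 or above in their lists.

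Cyp1b1, which also hydroxylates estrogens, had the highest fold enrichment of any P450 peak. In the OVA list its 3' UTR carried 1 peak of 1260 bp (chr17:79709194-79710453) with a fold enrichment of 11 at percentile 73.6 and a log10 p of -57.1. Among the PBS peaks the same stretch was divided into a peak of 541 bp with a fold enrichment of 6.70 and a peak of 511 bp (chr17:79709943-79710453) with a fold enrichment of 81.9, at percentile 99.9. The gap between them was 178 bp, and the outer end of the second was the same base as in the OVA list. The value of 81.9 therefore belongs to a part of the OVA peak and has no separate counterpart in the OVA list. A further peak in an exon of Cyp1b1 had a fold enrichment of 4.05 in the OVA and 2.71 in the PBS list, at percentiles 38.2 and 22.7. With each OVA peak paired to the PBS peak of largest overlap, both Cyp1b1 peaks were among the 5 P450 pairs whose percentile differed most, by 16.3 and 15.5 points, with the OVA list higher. For the 3' UTR this direction is set by the pairing with the PBS peak at percentile 57.3, since the OVA peak at percentile 73.6 was below the other PBS peak, at percentile 99.9.

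CYP2 was the largest group, with 11 genes, 11 in the OVA and 9 in the PBS list, and 14 peaks in each. Cyp2d22, a member of the CYP2D subfamily that oxidizes many drugs, had 2 peaks in the OVA and 4 in the PBS list. An exon peak (chr15:82373406-82373675) had an OVA fold enrichment of 23.4, at percentile 94.7 and a log10 p of -20.6. Its PBS counterpart (chr15:82373286-82373705) was wider and had a fold enrichment of 36.7, at percentile 99.0 and a log10 p of -123. By this peak Cyp2d22 came next after Cyp11a1 among the P450 genes of the OVA list and next after Cyp1b1 in the PBS list. The peak at the 5' end of Cyp2d22 had a fold enrichment of 3.29 in the OVA and 3.31 in the PBS list. The PBS list held a further 2 exon peaks on Cyp2d22, 121 and 91 bp wide, with fold enrichments of 2.34 and 3.21, and neither overlapped an OVA peak.

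Cyp2b19, an arachidonic acid epoxygenase known from skin, was also higher within the PBS list. Its first peak (chr7:26757261-26759087) had an OVA fold enrichment of 11.3, at percentile 74.6 and a log10 p of -3.03. In the PBS list the peak began 90 bp earlier, at chr7:26757171, and had a fold enrichment of 26.2, at percentile 97.0 and a log10 p of -7.95. Cyp2b19 thereby had one of the largest differences of percentile toward the PBS list, 22.4 points. A second PBS peak in the 3' UTR, with a fold enrichment of 7.16 and a log10 p of -3.28, overlapped no OVA peak. The low significance of the Cyp2b19 peaks contrasts with Cyp2b10, a relative that is induced through the constitutive androstane receptor. Cyp2b10 was singled out after its values were seen. It had the most extreme p-value of the P450 peaks, a log10 p of -2230 in the OVA and -5320 in the PBS list, at fold enrichments of 9.74 and 8.60.

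**Figure D2:**
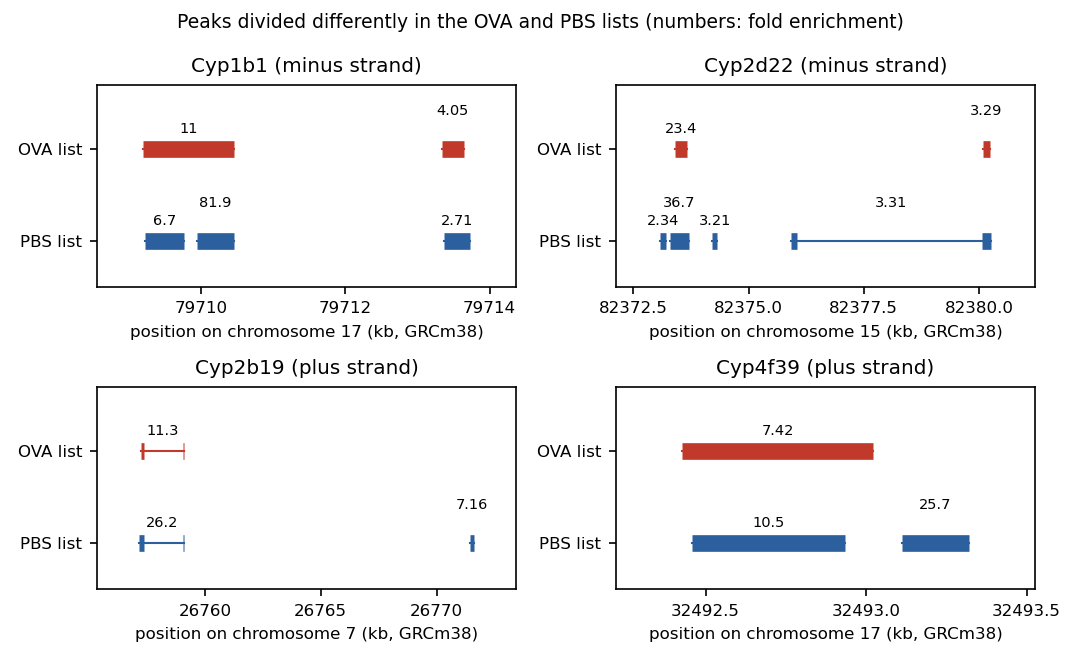
Peaks of Cyp1b1, Cyp2d22, Cyp2b19 and Cyp4f39 by genomic position (kb, GRCm38), with the OVA list above and the PBS list below in each panel; thick bars are exonic blocks, thin lines join blocks of 1 peak and the numbers are fold enrichments. The 1 OVA peak of 1260 bp on the 3' UTR of Cyp1b1 faces a pair of PBS peaks of 541 and 511 bp.

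Cyp2f2, the club cell enzyme that activates naphthalene, had a peak in the OVA and none in the PBS list. The peak was 61 bp wide at the 5' end of the transcript (chr7:27119938-27119998) and had a fold enrichment of 1.93, at percentile 8.97 and a log10 p of -26.5. Its enrichment was the lowest of the OVA peaks assigned to a P450 gene, although its p-value was more extreme than the list's P450 median of -16.6. Cyp2s1, an enzyme of airway epithelium, had an exon peak in both lists, with fold enrichments of 3.38 and 2.13 at percentiles 30.8 and 13.0. A second Cyp2s1 peak in the OVA list, at the 5' end (chr7:25816403-25816554), had a fold enrichment of 2.57 and a log10 p of -3.04 and overlapped no PBS peak. The 5' end peaks of Cyp2f2 and Cyp2s1 in the OVA list were thus low within that list.

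Cyp2u1, which hydroxylates long-chain fatty acids, had an exon peak on its own transcript and a peak called on Sgms2, the gene beside it. The exon peak had fold enrichments of 7.70 in the OVA and 5.05 in the PBS list, at percentiles 61.1 and 47.1. The peak called on Sgms2 had fold enrichments of 11.6 and 8.44. More peaks called on Cyp2u1 were found when peaks were taken by calling gene, as described below. Cyp2c23, another arachidonic acid epoxygenase, was named for a peak called on Erlin1 that had fold enrichments of 9.61 in the OVA and 10.3 in the PBS list.

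The Cyp2j genes, epoxygenases of arachidonic acid, lie side by side on chromosome 4, and for Cyp2j8 and Cyp2j6 the assigned name was that of the neighbor of the calling gene. The peak assigned to Cyp2j8 (chr4:96517686-96517866 in the OVA list) was called on Cyp2j6 and lies within the RefSeq span of Cyp2j6. It had fold enrichments of 6.93 in the OVA and 4.64 in the PBS list. The peak assigned to Cyp2j6 (chr4:96568458-96568697) was in turn called on Cyp2j9 and lies within the span of Cyp2j9. It had the same start and end in both lists, the only such pair among the 28. The OVA value was 14.4, at percentile 83.3 and a log10 p of -11.1, and the PBS value 7.30, at percentile 60.4 and a log10 p of -18.8. Among P450 pairs by largest overlap this was the largest difference in percentile, 22.9 points, while the p-value was the more extreme in the PBS list. The peak that was both assigned to and called on Cyp2j9 had fold enrichments of 7.70 and 5.76. Cyp2j5 had a peak in the OVA and none in the PBS list, but that peak was called on Gm12695, was listed at -59671 bp from the Cyp2j5 transcript start, and had a log10 FDR of -1.22, the only P450 peak that missed an FDR of 0.05. The P450 transcripts with a peak at this locus were therefore Cyp2j6 and Cyp2j9 by calling gene.

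**Figure D3:**
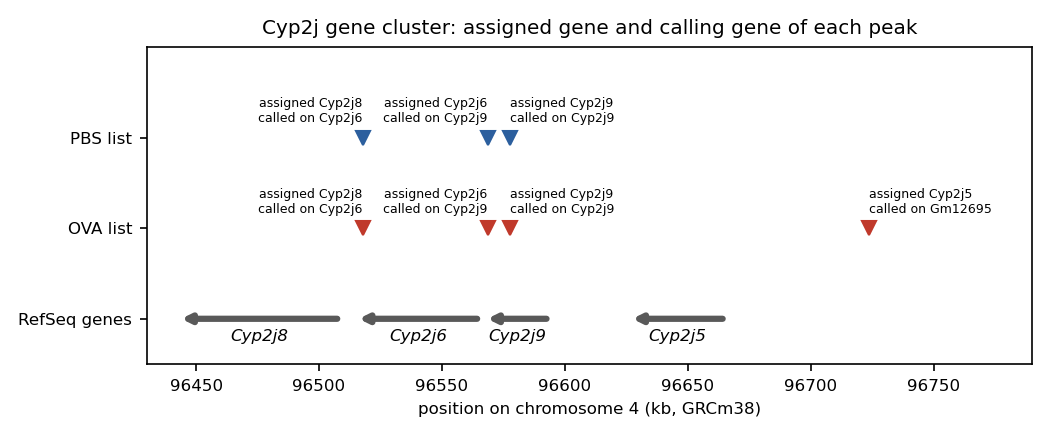
Peaks in the Cyp2j cluster on chromosome 4 (kb, GRCm38), with RefSeq genes drawn as arrows in the direction of transcription and triangles at the middle of each peak of the OVA list (red) and PBS list (blue). The peaks assigned to Cyp2j8 and Cyp2j6 lie at the 3' ends of Cyp2j6 and Cyp2j9, on which they were called.

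Enzymes of the CYP4 group hydroxylate the ends of fatty acids and of eicosanoids such as leukotrienes. This group had 4 genes with peaks, all 4 in the OVA and 3 in the PBS list. Cyp4f39, which acts on very long fatty acids of the skin barrier, had a 3' UTR peak with fold enrichments of 7.42 in the OVA and 10.5 in the PBS list. A second PBS peak lay 177 bp further on (chr17:32493111-32493320), had a fold enrichment of 25.7 at percentile 96.8 and a log10 p of -8.42, and overlapped no OVA peak. Its end is the RefSeq end of the gene. Only Cyp1b1, Cyp2d22 and Cyp2b19 had P450 peaks with a higher fold enrichment in the PBS list.

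Cyp4f16 had 3 peaks in the OVA and 2 in the PBS list, but only 1 of them in each list was called on Cyp4f16. That peak, in the 3' UTR, had fold enrichments of 2.13 in the OVA and 1.47 in the PBS list, the latter being the lowest of the peaks assigned to a P450 gene. The others were called on Cyp4f17, the gene before it: a shared peak with fold enrichments of 5.11 and 7.34, and a peak of the OVA list with a fold enrichment of 2.31 and a log10 p of -2.14 that overlapped no PBS peak. Cyp4f13 had a peak in the OVA and none in the PBS list, 121 bp wide in the 3' UTR, with a fold enrichment of 2.05 at percentile 11.2 and a log10 p of -3.55. Cyp4v3 was named for a peak called on Fam149a with fold enrichments of 3.44 and 4.09. A peak called on Cyp4v3 itself was assigned to Gm45753 and had fold enrichments of 1.39 and 1.84. The peaks called on Cyp4f16, Cyp4f13 and Cyp4v3 were thus low within their lists.

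In vitamin D metabolism, Cyp2r1 makes the circulating form and Cyp27b1 the active hormone. Cyp2r1 had 2 peaks in each list and all were called on Cyp2r1 and overlapped those of the other list. Their fold enrichments were 3.08 and 8.30 in the OVA and 2.96 and 10.9 in the PBS list. The peak named Cyp27b1 was called on Mettl1, with fold enrichments of 3.05 and 3.95. No peak was assigned to Cyp24a1, which degrades the hormone. Cyp2r1, Cyp2j9 and Cyp2b10 are the 3 genes that met none of the criteria for printing full values, and their 4 peaks in each list ranged from 3.08 to 9.74 in the OVA and from 2.96 to 10.9 in the PBS list.

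Among the enzymes of sterols and bile acids, Cyp8b1, which is needed for cholic acid, had a strong peak in both lists at its transcript start. In the OVA list the peak (chr9:121915644-121916305) had a fold enrichment of 20.9, at percentile 92.7 and a log10 p of -105. In the PBS list the peak (chr9:121915584-121916305) had a fold enrichment of 18.3, at percentile 91.3 and a log10 p of -203. Both ended at the base that RefSeq gives as the end of Cyp8b1, which is the transcript start on the minus strand. A further OVA peak in the exon, with a fold enrichment of 3.18 and a log10 p of -2.20, overlapped no PBS peak.

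Cyp39a1 and Cyp46a1 had a peak by name in the PBS list and none in the OVA list. Cyp39a1, an oxysterol hydroxylase, had a 3' UTR peak of 61 bp (chr17:43750832-43750892) with a fold enrichment of 11.8 at percentile 78.1 and a log10 p of -3.22, which overlapped no OVA peak. Cyp46a1, which turns over cholesterol in brain, was named for 2 peaks called on Hhipl1, with fold enrichments of 8.39 and 3.13. Both overlapped 1 peak of the OVA list (chr12:108327963-108328443) that was assigned to another gene, 4930478K11Rik, with a fold enrichment of 20.5. Cyp46a1 therefore differed between the lists by name, while the stretch of RNA had a peak in both.

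Cyp11a1, the mitochondrial enzyme that cleaves the side chain of cholesterol in the first step of steroid hormone synthesis, had 2 peaks in the OVA and none in the PBS list. The peak called on Cyp11a1 (chr9:58022324-58025105) covered 92 exonic bases and had a fold enrichment of 28.2, at percentile 97.0 and a log10 p of -8.59. The other (chr9:58006203-58006560) was called on Gm17322 within the Cyp11a1 span and had a fold enrichment of 27.2, at percentile 96.6 and a log10 p of -8.25. These were the highest fold enrichments of P450 peaks in the OVA list, with p-values less extreme than the P450 median of -16.6. Cyp11a1 was the only gene of its group with a peak, and the other 5 (Cyp11b1, Cyp11b2, Cyp17a1, Cyp19a1 and Cyp21a1) had none. In whole lung, a change in the share of the cells that hold a transcript and a change in its RNA per cell cannot be told apart, and a peak also needs enough RNA to be called.

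Retinoic acid is degraded by the CYP26 enzymes. Cyp26b1 had 3 peaks in each list, each with a counterpart. The peaks on its own 3' UTR had fold enrichments of 7.56 and 11.3 in the OVA and 7.26 and 7.18 in the PBS list. The third peak named Cyp26b1, 1650 bp wide in each list, was called on Exoc6b, with fold enrichments of 11.6 and 10.2 and a log10 p of -506 and -612. Cyp26c1 was named for a peak called on Exoc6, with fold enrichments of 4.62 and 3.45. The calling genes of the peaks beside Cyp26b1 and Cyp26c1 were thus members of the same exocyst subunit family. Cyp20a1, a P450 with no established substrate, was named for a peak called on Nbeal1, with fold enrichments of 6.04 and 4.51.

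Taking peaks by calling gene brought in other P450 transcripts, named here after their values were seen. By that column 35 peaks on 21 P450 genes were in the OVA and 39 peaks on 20 in the PBS list, 18 genes in both. The share of all genes in both lists was not computed by calling gene, so this overlap has no background. Of the 23 genes in either list, 19 were among the 26 above, and Cyp2e1, Cyp3a13, Cyp4f17 and Cyp7b1 were added. Cyp7b1, which hydroxylates oxysterols, had 2 peaks in each list that were assigned to Gm23686. The larger had a fold enrichment of 8.09 over 448 exonic bases (chr3:18096728-18097648) with a log10 p of -176 in the OVA list, and of 9.66 over 358 exonic bases (chr3:18097262-18097619) with a log10 p of -33.6 in the PBS list. The smaller had fold enrichments of 3.23 and 4.11 and a log10 p of -35.7 and -6.38. Both peaks of Cyp7b1 thus had the lower fold enrichment and the more extreme p-value in the OVA list.

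Peaks that were called on Cyp2u1, annotated to a 3' UTR and assigned to Gm18492 went the same way in fold enrichment. Some of them lie outside the RefSeq span of Cyp2u1, which begins at chr3:131290491. The values of these peaks were 2.82, 8.73 and 3.87 in the OVA list. The counterparts in the PBS list had 4.52, 22.7 and 16.3, and a further PBS peak, with a fold enrichment of 23.7 at percentile 95.9, overlapped no OVA peak. The exon peak of the same gene, by contrast, was at the higher percentile in the OVA list. Cyp2s1 had a 3' UTR peak assigned to Gm29763 with fold enrichments of 5.74 and 5.14 and a log10 p of -199 and -227, stronger than the peaks that carried its name. A further 2 PBS peaks on Cyp2s1 with that assignment had fold enrichments of 1.52 and 1.32, lower than the named peaks, and overlapped no OVA peak. Cyp2e1, the ethanol-inducible enzyme, had a peak in the PBS list (chr7:140774626-140774837) with a fold enrichment of 3.56 and a log10 p of -15.8 and none in the OVA list. Cyp3a13, a member of the drug-metabolizing CYP3 group, had 1 peak in each list, with fold enrichments of 6.85 and 6.22.

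By region, 22 of 36 P450 peaks of the OVA list were annotated to a 3' UTR, or 61.1% (44.9 to 75.2%), beside 52.7% of all peaks. Of the PBS peaks 23 of 36 were, or 63.9% (47.6 to 77.5%), beside 52.8%. Many of these belonged to the neighboring transcripts named above: 12 of the 22 and 11 of the 23 were called on another gene. Of the 24 P450 peaks of the OVA list inside the span of the assigned gene, 41.7% were in a 3' UTR, and 50% of the 24 in the PBS list. A 5' UTR was given for 6 P450 peaks of the OVA list and 5 of the PBS list, with median fold enrichments of 8.35 and 16.9, beside 5.31 and 5.43 for all 5' UTR peaks. These medians rest on few peaks, and the sets differ. The PBS set held peaks of Cyp2b19 and Cyp2r1 whose OVA counterparts were annotated to an exon and a 3' UTR. The OVA set held peaks assigned to Cyp2f2, Cyp2s1 and Cyp11a1 that overlapped no PBS peak. The median width of the P450 peaks was 345 bp in the OVA and 346 bp in the PBS list, beside 391 and 362 bp for all peaks.

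The peaks at transcript starts allow the first bases of some P450 transcripts to be shown. RefSeq promoter windows (GRCm38.p6) were found for 22 of the 26 P450 genes (all but Cyp2c23, Cyp2d22, Cyp2u1 and Cyp39a1), and the 50 bases after the start were searched on the transcript strand for 4 forms in which m6A is known to occur, which are GGACT, then GGACA, then GGACC, and lastly AGACT. The stretches of at most 30 bases shown are parts of these 50 bases inside a peak, with a motif in capitals. Among the genes with a window, peaks covered some of the 50 bases for 5, of which 4 are shown: Cyp2b19 in the PBS list from base 30 to base 50 (plus strand, chr7:26757171-26757191), and from base 1 Cyp8b1 in both lists (minus strand, chr9:121916276-121916305), Cyp2f2 in the OVA list (plus strand, chr7:27119955-27119984) and Cyp2s1 in the OVA list (minus strand, chr7:25816496-25816525).
Cyp2b19: tgattagaccaGGACCatgga
Cyp8b1: gtagagctgacaagtggagctcagcctgct
Cyp2f2: acacacatacactgcagcacacacaagaac
Cyp2s1: acagacccagccgacctgcagagatggagg
The covered bases of Cyp2b19 held GGACC. The 50 bases after the starts of Cyp8b1 and Cyp2s1 and the 44 covered bases of Cyp2f2 held none of the 4 motifs. These 4 are only some forms of the wider pattern RRACH, where R is A or G and H is A, C or T. The paper reports RRACH patterns in the peak regions of both groups. Its other forms were not searched for here. The form AGACC can be read, in lower case, in the printed stretches of Cyp2s1 and Cyp2b19. For Cyp1a1 the start used was chr9:57697613, inside the gene, whose RefSeq span begins at chr9:57687928. The 50 bases after that inner start were covered by a Cyp1a1 peak in both lists and held none of the 4 motifs. Of all 32851 windows, 5.13% held GGACC and 19.9% held any of the 4, and of the 82 P450 windows 5 and 18 did. A match is a description of these letters and not a measured site.

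Most P450 genes had no peak. RefSeq has 94 genes whose symbol follows the name rule, of which 26 had a peak by assigned gene, or 27.7%, while 50.6% of the 21900 protein-coding symbols did. By either column 30 had a peak and 64 had none, and by calling gene 23 had one. In the OVA list, 22.3% of the 94 had a peak by calling gene, beside 52% of the protein-coding symbols. In the PBS list the shares were 21.3% and 50.5%. Those without a peak included all 4 CYP2A genes, all 5 CYP4A genes, 14 of 15 CYP2C genes (the other, Cyp2c23, had peaks by name that were called on Erlin1), 8 of 9 CYP2D genes and 6 of 7 CYP3A genes. The lists do not give the RNA levels of these genes, and a missing peak does not show that a transcript is unmethylated.

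Of 26 other genes of the P450 system, 15 had a peak by assigned gene in the OVA and 16 in the PBS list, beside 47.5% and 46.1% of all RefSeq protein-coding genes. By calling gene 20 and 19 had one, 18 in both, beside 52% and 50.5% of all. Por, the reductase that feeds electrons to P450 enzymes, had a 3' UTR peak with fold enrichments of 2.35 and 1.93, at percentiles 16.4 and 9.43. Pgrmc1, from the set of electron transfer and heme partners, was called in the PBS and not in the OVA list. Its 5' UTR peak had a fold enrichment of 2.61 and a log10 p of -26.6. Of 9 regulators of P450 genes, 9 had a peak by calling gene in the OVA and 8 in the PBS list, and 6 in each by assigned gene. Ahr, the aryl hydrocarbon receptor that induces the CYP1 genes, had 1 peak in the OVA list with a fold enrichment of 11.5, and 2 in the PBS list with 12.3 and 3.12. Nr1i2, the pregnane X receptor, was the calling gene of peaks in the OVA and not in the PBS list, with fold enrichments of 4.11 and 4.79 at a log10 p of -2.62 and -2.70. By assigned gene Nr1i2 had a shared peak, called on Maats1, with fold enrichments of 11 in the OVA and 5.43 in the PBS list. Nr1h4, the bile acid receptor, had a shared peak with fold enrichments of 27.7 in the OVA and 24.2 in the PBS list, at percentiles 96.8 and 96.2.

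Some P450 enzymes fall outside the name rule. Cyp51, which demethylates lanosterol, had 3 peaks in the OVA list with fold enrichments of 2.80, 1.58 and 1.47 and 2 in the PBS list with 2.68 and 1.96. Tbxas1, the thromboxane synthase, had a 5' UTR peak with a fold enrichment of 5.08 and a log10 p of -38.4 in the OVA list, and of 2.65 and -2.34 in the PBS list. Ptgis, the prostacyclin synthase, had a peak in the OVA list, with a fold enrichment of 12.1 and a log10 p of -6.28, and none in the PBS list. Ephx1, the epoxide hydrolase that acts on P450 products, had fold enrichments of 16.4 and 2.41 in the same order, with the more extreme p-value in the PBS list (log10 p of -15.9 and -24.1).

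Markers of lung cell types were counted by calling gene. In each list a peak was found for 5 of 6 markers of alveolar type 2 cells, with Sftpc in neither list, and 1 of 3 of club cells (Scgb1a1). The counts in each list were 4 of 4 for alveolar type 1 cells, 3 of 3 for ciliated cells and 4 of 4 for endothelium. The markers with a peak were the same in both lists. Of all genes, 52% had a peak in the OVA and 50.5% in the PBS list, as given above. Of 5 liver markers (Alb, Apoa1, Ttr, Serpina1a and Fgb) 0 had a peak in either list. Of 5 eosinophil and mast cell markers, Mcpt4 had a peak in the OVA list, with a fold enrichment of 8.73, and the others (Siglecf, Prg2, Epx and Cpa3) had none in either list. The peak lists hold no level of these markers, and the part of cell composition in the P450 results was not tested.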

How the data were processed

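RNA from 3 lungs per group was sequenced as 6 IP and 6 input libraries. Per the labels and the methods, reads were aligned with HISAT2, peaks were called with exomePeak on IP against input, and genes were assigned with ChIPseeker. The deposited lists give a fold enrichment per peak (a ratio of IP over input, by the authors) and log10 p and FDR values, handled here as a deposited score. Read depth is unknown from the lists, which pool the samples of a group.

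P450 rows were selected by name, and calling gene identifiers were matched to symbols (27259 of 27292 peaks in the OVA list, 26070 of 26102 in the PBS list, all P450 peaks). Exonic blocks were compared between lists (at least 1 bp), each OVA peak being paired with the PBS peak of largest overlap. The overlap code was tested on simulated data. Full values are printed for genes in 1 list, with an unshared peak, with 3 or more peaks, called on another gene, among the 5 highest fold enrichments per list, or among the 5 largest percentile differences. Members and lists were chosen with earlier results of these data known. Motifs over whole peaks and protein identity were not analysed here. Python 3.11.15, pandas 2.3.3, numpy 2.4.6, scipy 1.17.1 and matplotlib 3.10.9 were used.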

Additional observations from a re-analysis of the deposited data

How the results depend on the processing

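The 12 results on P450 peaks were computed under 68 alternatives, and 56 stayed within the limit used, which was 1.5 times for a count and the 95% interval for a share or a median. No count moved past it at an FDR under 0.05 or at a fold enrichment of at least 2, and the medians of fold enrichment stayed within their intervals under each alternative run. With protein-coding transcripts only, the P450 peaks were 20 for OVA and 19 for PBS, with 14 P450 genes in the OVA list, 5 OVA peaks without overlap and 2 genes in the OVA list only. Inside the RefSeq span of the assigned gene, there were 14 P450 genes in the PBS list, 1 gene in the PBS list only, and a 3' UTR share of 41.7% in the OVA list. For neither the protein-coding nor the RefSeq span rule was a share of all peaks or genes computed. By calling gene, 9 of 39 P450 peaks of the PBS list overlapped no OVA peak, beside 14.5% of all PBS peaks. When shared peaks had to have the same start and end, 35 of 36 peaks in each list had no counterpart. The shares of all peaks were then 89.7% in the OVA and 89.3% in the PBS list. When 50% of each peak had to be covered, 11 of 36 of the PBS list had none, beside 28.3% of all PBS peaks. Fewer peaks can pass under the stricter rules by construction. By calling gene, the further PBS peaks without overlap were called on Cyp2u1, Cyp2e1 and Cyp2s1 and assigned to genes of other names. No paired analysis was possible because each list holds 1 value per peak for the whole group, and for the same reason no replicate could be left out.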

Other observations

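The transcript that gave a P450 peak its name was annotated as a retained intron for 10 peaks of the OVA list, or 27.8% (Wilson 95% interval 15.8 to 44.0%), beside 20.4% of all peaks, and for 11 of the PBS list, or 30.6% (18 to 46.9%), beside 20.1%. It was annotated to nonsense-mediated decay for 4 peaks of the OVA list, or 11.1% (4.41 to 25.3%), beside 4.12%, and for 5 of the PBS list, or 13.9% (6.08 to 28.7%), beside 4.20%. The latter peaks were all assigned to Cyp1b1 and Cyp2r1.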
